A study of Caenorhabditis elegans with 21 samples.

Results

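The 9 wild-type small RNA libraries of Caenorhabditis elegans in this series, lettered A to I, were compared with each other: the 6 libraries A to F against the 3 libraries G to I. They were taken by these letters from the 21 libraries of the count table, with every row that names a gene or a genomic interval, and no mutant library was used. By the labels all 9 are of the wild-type genotype and came from whole animals staged as L4, the last larval stage, which were fed NA22 bacteria at 15 °C. Positions below are on the genome build ce11. No transgene, mutation or treatment of the animals is given for either set. The labels name no difference between the sets beyond the letter, no date and no batch, so whatever accompanied the letters cannot be told apart from the sets. They do not say that the libraries came from separate cultures, so a p-value here speaks only to the spread among these 9 libraries, which may be technical.

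Small RNA counts over a gene are not counts of its messenger RNA. In C. elegans, RNA-dependent RNA polymerases copy target transcripts into short antisense RNAs with a 5′ triphosphate, which are bound by worm-specific Argonautes (WAGOs). WAGO-bound RNAs silence transposons, pseudogenes and many genes, often after a trigger from piRNAs or from the ERGO-1 Argonaute, while RNAs bound by the Argonaute CSR-1 map to genes that are active in the germline. The libraries were made from RNA treated with a 5′ polyphosphatase, which lets triphosphate RNAs be ligated. Gene lists for sperm, oocytes, muscle or intestine below therefore name the genes that the small RNAs map to, and do not check the labelled stage or count cells. In whole worms, fewer cells of a type and less RNA per cell cannot be told apart.

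The libraries held 233040 to 583038 counts in features, which were 28.6% to 46.8% of all reads counted (653579 to 1448677). A count of 3 corresponded to 4.40 to 14.1 CPM (counts scaled to a common feature total, with the normalisation factor of the library), so levels near these rest on very few reads. The depths of the sets overlapped, since library H (300211 feature counts) lay just below C and below D and E. Within A to F, Pearson correlations of log2 CPM over the 4634 features tested were 0.922 to 0.960 in 15 pairs, and within G to I 0.951 to 0.972 in 3 pairs. Between the sets they were 0.641 to 0.686 in 18 pairs. The chi-square per degree of freedom of the counts was 1.08 to 1.55 within A to F, 1.16 to 1.43 within G to I and 8.33 to 12.5 between the sets. Every pair within a set differed by more than sampling noise (largest p = 1.72e-05, chi-square test of counts over features), so no pair was merged. This test takes reads as independent, and removal of PCR duplicates is not given in the sources used here, so it does not show that the libraries came from separate samples.

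The shares of the large feature classes were apart between the sets. Reads that fell in no feature made up 67.3% to 71.3% (median 68.6%) of all reads counted in A to F, and 53.1%, 54.0% and 53.5% in G, H and I. Of the feature counts, unnamed genomic intervals held 21.4% to 21.9% (median 21.7%) in A to F and 16.6%, 16.3% and 16.4% in G, H and I. Protein-coding genes held 74.1% to 75.0% (median 74.6%) in A to F and 80.3%, 80.5% and 80.6% in G, H and I. Pseudogenes held 3.63% to 4.02% (median 3.77%) against 2.98%, 3.12% and 2.95%. In none of the 4 shares did the sets overlap. The differences between the means were -15.5, -5.19, 5.94 and -0.76 percentage points in the order given (exact permutation test, 2-sided, p = 0.0238 for each, which is the least that the 84 possible splits can give, and 0.0238 when adjusted over the 4 shares). As shares of all reads counted the direction turned for intervals, which were then 0.928 points higher in G to I, and for pseudogenes, which were 0.230 points higher.

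**Figure D1:**
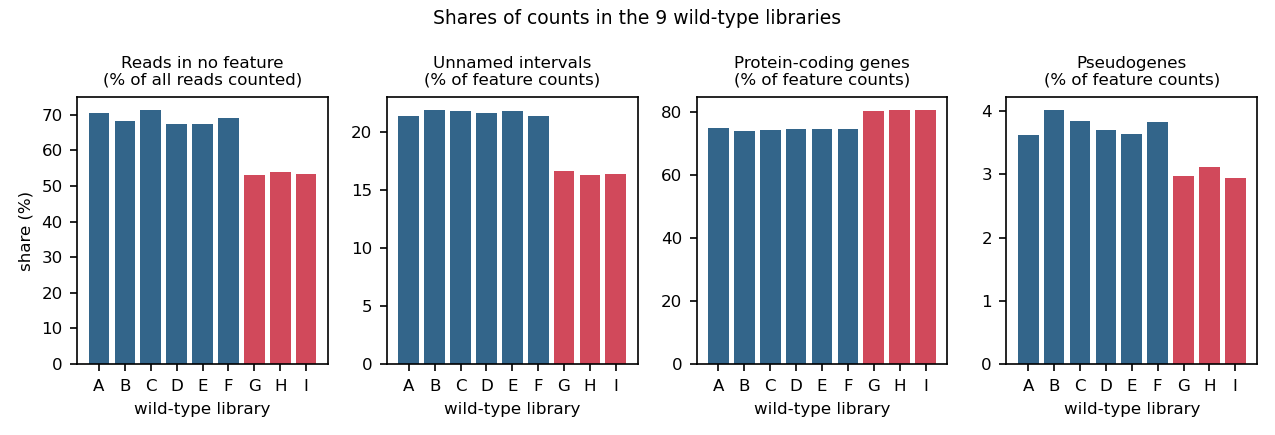
Share of counts (%, vertical axis, from 0) in each of the 9 wild-type libraries (horizontal axis) for reads in no feature, intervals, protein-coding genes and pseudogenes. Bars are single libraries, A to F in blue and G to I in red, and in each panel the 3 red bars lie on 1 side of all 6 blue bars.

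Across features the sets differed over most of the table. Of 4634 features tested with edgeR's quasi-likelihood test, 1613 (34.8%) were called higher in G to I at an adjusted p under 0.05 and 1481 (32%) were called lower, which is 66.8% in either direction. At least 2-fold changes were called for 725 higher (15.6%) and 687 lower (14.8%). In 1227 features (26.5%) every library of G to I lay above every library of A to F, and in 1220 (26.3%) every one lay below. The filter on low counts asked for 33.3 CPM of feature counts in at least 3 libraries. It was passed in both sets by 2885 features, of which 799 (27.7%) were higher and 985 (34.1%) lower, by 951 in G to I alone and by 621 in A to F alone. The rest passed only with libraries of both sets counted together. Features that passed in 1 set alone had to be high there, so counts among those that passed in both sets are also given for the lists below. For a single gene that passed in 1 set alone, its call and a lack of overlap follow in part from this and are no separate result. Where a list has no share of all features beside it, its both-set counts are to be read against these 27.7% and 34.1%. Counts over all its tested members are to be read against 34.8% and 32%.

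Directions are relative to the scale chosen. The median log2 fold change of all features tested was 0.11 with the trimmed mean of M values (TMM) and 0.10 with DESeq2 size factors, where 52.0% of calls were higher against 52.1% with TMM. It was -0.05 with TMM computed on genes only (42.2% of calls higher), 0.44 with plain feature totals (68.3% higher) and 1.02 with all reads counted (88.5% higher). Over these 4 other scales the distance of each list's median from the median of all features moved by at most 0.094, for the spermatogenesis list. For the other lists it moved by at most 0.013. The lists are therefore read against all features, and for genes called in a direction that turned on another scale this is given beside the gene. Some genes kept their lower direction but not their call, namely col-111, hil-3, klp-20, lin-42, lsl-1, meg-4, sdc-2 and sosi-1 with all reads counted, and acdh-1, car-1, eri-6, flp-16 and wago-4 with feature totals. Without a filter pid-2 did so too. Summed over all features, the mean level of G to I was 0.791 times that of A to F on the TMM scale, and over all protein-coding genes 0.854 times, so sums below are read against these. The medians of 11 lists changed sign on another scale. With TMM on genes only this held for the Argonaute, P granule, sex determination, RNase H and translation factor lists, and with DESeq2 size factors for the Argonaute list. With plain feature totals it held for the MATH and BTB and DNA replication lists. With all reads counted the medians of those 2 lists and of the WAGO, linker histone, muscle and neuron lists changed sign.

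Many sperm genes had counts in G to I and few or none in A to F. The spermatogenesis list holds 88 genes in the table, named from the sperm-specific msp, ssp, nspd and spe families and a few single genes, and 11 of them passed the filter, 7 in G to I alone and 3 in both sets. Of the 11, 8 (72.7%) were higher, 1 (9.09%) lower and 2 not called, against 34.8% higher and 32% lower of all features. Of the 3 that passed in both sets 1 was higher and 1 lower, with a median of -0.19. Of the 84 listed genes with a count, 43 had no count in A to F and a count in G to I, and 1 gene the reverse. Of all 25003 features with a count, 3648 had none in A to F and 6298 none in G to I. Summed over all 88 genes the level came to 495 to 569 CPM (median 554) in A to F and to 1600, 1797 and 1540 CPM in G, H and I. The median log2 fold change of the 11 was 4.57, which rests mostly on genes that passed in G to I alone, or the same with the 5 tested genes without a count in A to F taken at their lower bound. With every library thinned to 233040 counts, the median of the 11 was 0.85 with 3 higher and 1 lower. With the filter applied anew after leaving out library A, B, C or F, 16 members were higher, and 17 without library H.

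The msp genes encode the major sperm proteins, which form the motile cytoskeleton of sperm. None of the 31 passed the filter, but together they had 32 counts in the libraries A to F against 555 in G to I, and their sum was 8.28 to 22.5 CPM (median 18.4) in A to F and 323, 415 and 287 CPM in G, H and I. The 12 ssp genes, a family of small sperm-specific proteins, had 4 counts in A to F against 504 in G to I, and the 10 nspd genes, a nematode-specific peptide family, had 5 against 449. Per library the ssp sum was 0 to 4.50 CPM (median 1.81) in A to F and 274, 333 and 304 CPM in G, H and I. The nspd sum was 0 to 4.67 CPM (median 3.27) in A to F and 254, 293 and 263 CPM in G, H and I. In each of these 3 families the lowest library of G to I lay above the highest of A to F. The genes within a family are close copies, so the split of reads among them is uncertain and the sums are the safer value.

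Among single sperm genes, ssp-16 (WBGene00006044, chromosome I, 6102067 to 6102396, plus strand) had no count in A to F and 96.9, 96.7 and 82.0 CPM in G, H and I, which is at least 54.8-fold higher. The gene nspd-3 (chromosome IV, 5162826 to 5163041, minus strand) had no count in A to F and 60.2, 62.5 and 51.7 CPM in G, H and I, at least 34.5-fold higher. The gene nspd-6 had no count in A to F and 45.5, 37.0 and 53.2 CPM in G, H and I. The spch genes encode small basic proteins of sperm chromatin, and spch-1, spch-2 and spch-3 were picked for their values. The gene spch-3 (chromosome I, 6098927 to 6099731, plus strand) had 0 to 4.67 CPM (median 1.13) in A to F and 113, 139 and 111 CPM in G, H and I, a ratio of 70.8 (95% interval 23.9 to 346) from 3 and 199 counts. The gene spch-1 had 0 to 4.70 CPM (median 0) against 109, 111 and 79.0 CPM and spch-2 no count against 41.1, 42.6 and 42.5 CPM. The genes gsp-3 and gsp-4, the phosphatase genes of sperm meiosis and motility, were too low to be tested, with 1 and 0 counts in A to F against 28 and 40 in G to I. For all of these genes A to F held between 0 and 3 counts in all, and G to I held counts in each library.

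Other sperm genes had small RNAs in both sets. The gene spe-47 (chromosome I, 2617529 to 2620430, plus strand) had 154 to 223 CPM (median 188) in A to F and 163, 179 and 170.2 CPM in G, H and I, with overlap between the sets (log2 -0.19, SE 0.13, adjusted p = 0.174). The gene spe-41, which encodes a sperm calcium channel, was lower, with 128 to 169.8 CPM (median 144) in A to F and 99.8, 82.5 and 120 CPM in G, H and I (log2 -0.46, SE 0.15, adjusted p = 0.00695), and turned to log2 0.45 with all reads counted. The gene fer-1, the ferlin gene of sperm membrane fusion, was higher, with 9.58 to 37.6 CPM (median 32.7) in A to F and 70.5, 76.8 and 60.8 CPM in G, H and I (log2 1.31, SE 0.25, adjusted p = 3.58e-06). The gene cpb-1, an RNA-binding protein gene needed for spermatogenesis, had 28.0 to 58.0 CPM (median 44.1) in A to F and 82.2, 59.7 and 59.2 CPM in G, H and I (log2 0.62, SE 0.22, adjusted p = 0.00981). The gene spe-44, for a transcription factor for sperm genes, was too low to be tested, with 13 counts in A to F against 23 in G to I. The call of cpb-1 was lost without library G (adjusted p = 0.18), with TMM on genes only (0.0549), in a table of genes only (0.0555), with thinned counts (0.141) and by DESeq2's test (0.112). That of spe-41 was lost with feature totals (0.476), without a filter (0.0878) and by DESeq2's test (0.0737). The last 4 of these genes were named after their values were seen.

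Oocyte and early embryo genes were mostly higher as well. Of 46 in the table, 37 were tested, 26 were higher and 3 lower, against 34.8% and 32% of all features, with a median of 1.09. Of the 18 that passed the filter in both sets 9 were higher and 3 lower (median 0.30), and 19 passed in G to I alone. Summed over the 46 genes the level came to 4117 to 4606 CPM (median 4466) in A to F and to 6237, 6784 and 6191 CPM in G, H and I. The mean of G to I was 1.45 times that of A to F, and no library of G to I overlapped with A to F.

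The leading members act at the oocyte surface and in egg activation. The gene egg-4 (WBGene00020652, chromosome I, 3932210 to 3934813, plus strand), which encodes a pseudophosphatase of egg activation, had 23.5 to 46.7 CPM (median 30.3) in A to F and 335, 461 and 413 CPM in G, H and I (log2 3.66, SE 0.16, adjusted p = 2.23e-33). Its partner egg-5 (chromosome I, 4168984 to 4171589, minus strand) had 4.14 to 16.8 CPM (median 11.7) in A to F and 189, 182 and 182 CPM in G, H and I (log2 4.09, SE 0.24, adjusted p = 4.1e-26). The gene rme-2 (chromosome IV, 5470026 to 5473174, plus strand), the yolk receptor gene of oocytes, had 8.28 to 36.3 CPM (median 27.6) in A to F and 173, 202 and 220.3 CPM in G, H and I (log2 2.91, SE 0.20, adjusted p = 1.38e-22). In all 3 genes every library of G to I lay above every library of A to F. Of the 5 egg genes tested, 1 passed the filter in both sets, at log2 0.82. The other 4, with egg-4 and egg-5 among them, passed in G to I alone. The median of rme-2 in A to F was under the filter level too. For these 3 genes the lack of overlap is therefore no separate result. The sperm-binding receptor genes egg-1 and egg-2 had log2 fold changes of 1.73 and 2.17. Of the 8 puf genes, which encode Pumilio-type RNA-binding proteins, 7 were higher. Of the 5 that passed the filter in both sets 4 were higher, with a median of 0.58, and the other 3 passed in G to I alone. Among the 7 were puf-5 (log2 2.33), puf-11 (log2 1.89) and puf-3, with 13.5 to 37.6 CPM (median 17.3) against 114, 173 and 120 CPM. The gene mex-5, a zinc-finger gene of embryonic polarity, had 9.41 to 36.3 CPM (median 14.9) against 60.2, 68.2 and 63.8 CPM, and mex-1 and pie-1, which keep germline fate in the embryo, had log2 fold changes of 2.22 and 2.15. The eggshell proteoglycan gene cpg-1 had 9.41 to 42.1 CPM (median 21.1) against 86.6, 139 and 88.1 CPM. These puf, mex, pie-1, cpg-1, egg-1 and egg-2 genes were chosen after their values were seen. All 4 tested mex genes passed the filter in G to I alone. The cortical polarity gene par-2 went the other way with 881 to 1019.9 CPM (median 949) in A to F and 621, 671 and 523 CPM in G, H and I (log2 -0.67, SE 0.08, adjusted p = 1.58e-11), and turned to log2 0.25 with all reads counted.

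The yolk genes followed the same direction. The vit genes encode vitellogenins, which the adult hermaphrodite intestine makes and oocytes take up through RME-2. The 6 vit genes had 13 counts in A to F against 286 in G to I, and their sum was 0 to 12.0 CPM (median 6.48) in A to F and 173, 168 and 166 CPM in G, H and I. The gene vit-6 (chromosome IV, 8261157 to 8266459, plus strand) had 0 to 3.63 CPM (median 1.13) in A to F and 70.5, 59.7 and 50.1 CPM in G, H and I, a ratio of 36.3 (95% interval 12.1 to 179) from 3 and 102 counts. The gene vit-2 (chromosome X, 5101042 to 5106169, plus strand) had 0 to 7.25 CPM (median 2.07) in A to F and 47.0, 48.3 and 56.2 CPM in G, H and I (log2 4.05, SE 0.43, adjusted p = 2.03e-13). The library lowest in G to I lay above the highest of A to F for both genes and for the sum. Both genes passed the filter in G to I alone and had to be high there, so for them this is no separate result. The sum holds all 6 genes, whether or not they passed. The part of the yolk genes in the differences of the other lists was not tested.

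Of the intestine list as a whole 8 of 24 genes were tested, 6 higher and 2 lower (median 1.01), and the only gene that passed the filter in both sets was acdh-1. This acyl-CoA dehydrogenase gene was lower, with 228 to 337 CPM (median 291) in A to F and 188, 117 and 242 CPM in G, H and I (log2 -0.61, SE 0.13, adjusted p = 3.5e-05), and turned to log2 0.30 with all reads counted. The gene pept-1, for an intestinal peptide transporter, had 43.5 to 84.7 CPM (median 55.2) in A to F and 13.2, 8.53 and 12.2 CPM in G, H and I (log2 -2.21, SE 0.31, adjusted p = 1.77e-09) and was lower in every library of G to I. The 6 higher genes were vit-2, vit-6 and 4 protease genes (asp-1, cpr-1, cpr-5 and cpr-6). With thinned counts the median of the list was -0.77, with 1 higher and 2 lower.

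**Figure D2:**
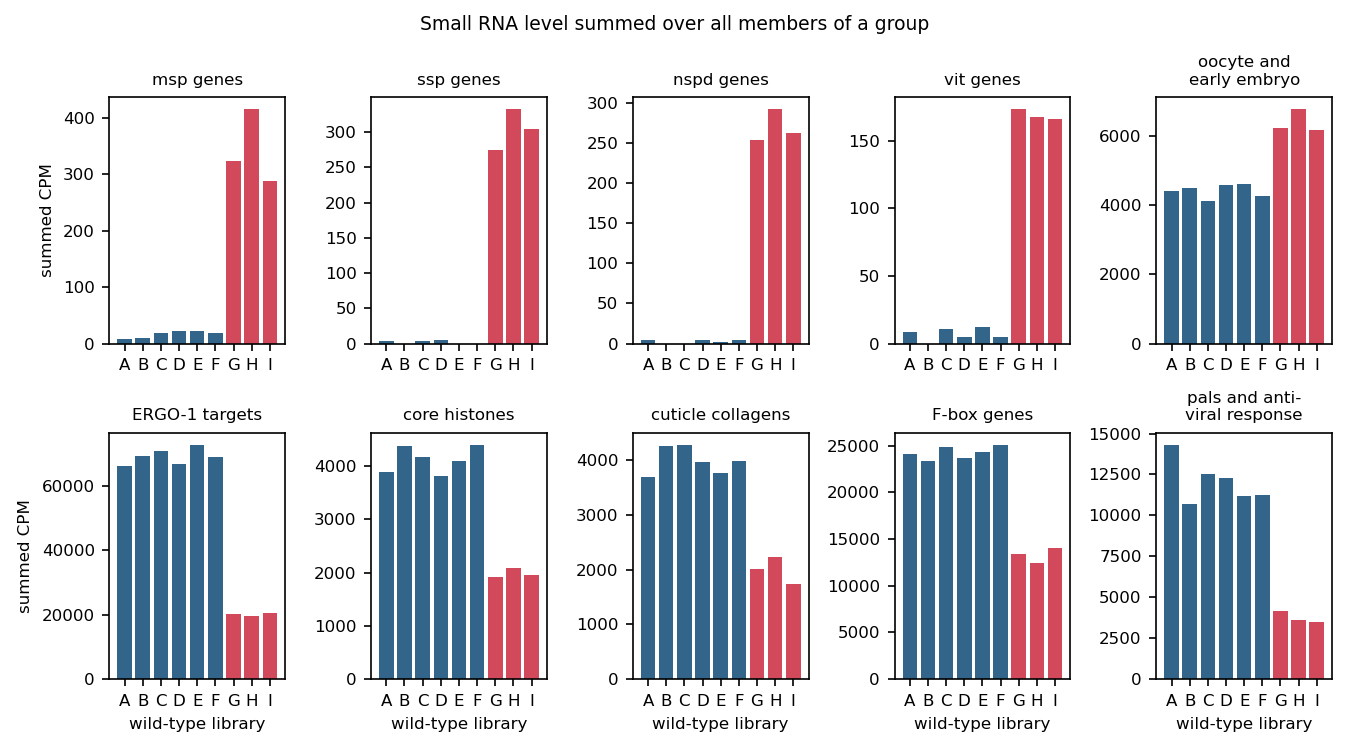
Small RNA level summed over all members of a group (CPM, vertical axis, from 0) in each wild-type library (horizontal axis), A to F in blue and G to I in red. The msp, ssp, nspd and vit sums are near 0 in A to F and between 165.6 and 415 CPM in G to I, while the sums in the lower row lie lower in all 3 libraries of G to I.

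Meiosis genes were called higher at a share near that of all features. Of 33 genes 22 were tested, 9 (40.9%) were higher and 0 lower by edgeR, against 34.8% and 32% of all features, with a median of 0.30. At an unadjusted p under 0.05, 0 were lower, DESeq2's test called 6 higher and 0 lower, and TMM on genes only 5 higher and 1 lower. Of the 17 that passed the filter in both sets 6 (35.3%) were higher, against 27.7% of all features that did. The gene syp-4, of the synaptonemal complex that joins homologous chromosomes, had 42.3 to 87.0 CPM (median 71.2) in A to F and 159, 168 and 185 CPM in G, H and I (log2 1.33, SE 0.16, adjusted p = 2.5e-11). The crossover gene msh-5 had 56.1 to 110.3 CPM (median 88.7) in A to F and 167, 210.4 and 170.2 CPM in G, H and I (log2 1.01, SE 0.16, adjusted p = 4.05e-08). The gene him-8, which encodes the pairing protein of the X chromosome, had 9.35 to 23.9 CPM (median 17.6) in A to F and 42.6, 59.7 and 48.6 CPM in G, H and I (log2 1.44, SE 0.29, adjusted p = 9.16e-06). In these 3 genes the sets did not overlap. The gene htp-1, a chromosome axis gene and the member with the highest level, had 338 to 414 CPM (median 398) in A to F and 390.4, 424 and 415 CPM in G, H and I and was not called (log2 0.10, SE 0.10, adjusted p = 0.365).

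In the sex determination list, 18 genes in the table and 13 tested, 2 were higher and 4 lower (median 0.068). Those at the filter level in both sets were 7, with 2 higher and 2 lower. TMM on genes only gave 0 higher and 4 lower, feature totals 5 and 3, and all reads counted 9 and 1. With thinned counts the median turned to -0.41. The gene fog-1 (WBGene00001481, chromosome I, 3211046 to 3217267, plus strand), an RNA-binding protein gene that directs germ cells to the sperm fate, had 51.4 to 71.8 CPM (median 67.8) in A to F and 7.34, 11.4 and 3.04 CPM in G, H and I (log2 -3.27, SE 0.34, adjusted p = 4.69e-14). Every library of G to I lay below every library of A to F, but fog-1 was under the filter level in each library of G to I. It was tested only for being high in A to F, so its lower call follows from that. The dosage compensation gene sdc-2 had 64.6 to 117 CPM (median 96.6) in A to F and 36.7, 25.6 and 41.0 CPM in G, H and I (log2 -1.30, SE 0.22, adjusted p = 4.28e-07). The gene tra-3, a calpain gene of the same pathway, had 87.0 to 136 CPM (median 107) in A to F and 66.1, 51.2 and 54.7 CPM in G, H and I (log2 -0.88, SE 0.19, adjusted p = 3.12e-05). The gene tra-3 turned to log2 0.029 with all reads counted. The gene fbf-2, which encodes a Pumilio-type repressor in germline stem cells, was higher with overlap, at 126 to 186 CPM (median 146) against 195, 185 and 187 CPM (log2 0.35, SE 0.13, adjusted p = 0.0159). Its call was lost without library E (adjusted p = 0.0544) or G (0.091), with TMM on genes only (0.191), in a table of genes only (0.186) and by DESeq2's test (0.0991).

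Genes of protein synthesis and folding were higher in part. Of 81 cytosolic ribosomal protein genes 39 were tested, with a median of 0.60. By edgeR 22 (56.4%) were higher and 0 lower, against 34.8% and 32% of all features. At an unadjusted p under 0.05, 0 were lower, and of the 39 genes DESeq2's test called 13 higher and 0 lower. With thinned counts 10 were higher. Of the 15 that passed in both sets 6 were higher, and 20 passed in G to I alone. The sum over the 81 genes came to 1720 to 2140 CPM (median 1792) in A to F and to 2937, 3281 and 2747 CPM in G, H and I. Libraries of the sets did not overlap in this sum. The gene rla-0, for the acidic stalk protein, had 14.0 to 29.0 CPM (median 22.2) in A to F and 95.4, 125 and 94.2 CPM in G, H and I (log2 2.18, SE 0.23, adjusted p = 2.21e-13). The gene rps-2 had 32.7 to 65.3 CPM (median 52.9) in A to F and 153, 202 and 115 CPM in G, H and I (log2 1.50, SE 0.19, adjusted p = 5.39e-11). The gene rpl-42 (WBGene00004455, chromosome II, 11092713 to 11094022, plus strand), a gene of the large subunit, had no count in A to F and 110.1, 105 and 123 CPM in G, H and I, which is at least 68.7-fold higher. An interval that overlaps an exon of rpl-42 on the same strand (II, 11093909 to 11094021) had 0 to 4.14 CPM (median 0) against 38.2, 34.1 and 42.5 CPM, with 1 and 66 counts.

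Translation factors were mixed, with 3 higher and 3 lower of 20 tested (26 in the table, median 0.064). That is 15.0% each, against 34.8% and 32% of all features. Of the 20, those at the filter level in both sets were 16, with 3 higher and 1 lower. By TMM on genes only 3 were higher and 4 lower, by feature totals 8 and 1, and all reads counted 16 and 0. The elongation factor gene eef-2 had 94.1 to 112 CPM (median 96.3) in A to F and 201, 165 and 197 CPM in G, H and I (log2 0.96, SE 0.14, adjusted p = 1.05e-08). The gene eef-1A.1 had 33.8 to 54.4 CPM (median 49.2) against 92.5, 102 and 98.7 CPM (log2 1.05, SE 0.20, adjusted p = 3.22e-06). The gene eef-1B.1 had 74.2 to 103 CPM (median 91.5) against 138, 165 and 120 CPM (log2 0.65, SE 0.16, adjusted p = 0.000306). All 3 were higher without overlap. The gene eef-1B.2, the member with the highest level, had 145 to 273 CPM (median 191) against 172, 196 and 179 CPM and was not called (log2 -0.081, SE 0.14, adjusted p = 0.611).

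The heat shock and stress list, which also holds detoxification genes of the cyp, gst and ugt families, had 216 genes in the table and 15 tested, 9 higher and 2 lower (median 0.44). Of the 10 that passed in both sets 8 were higher. The cytosolic chaperone gene hsp-90 had 108 to 139 CPM (median 123) in A to F and 326, 344 and 273 CPM in G, H and I (log2 1.34, SE 0.13, adjusted p = 9.47e-16). The gene crt-1, which encodes calreticulin, had 32.9 to 58.5 CPM (median 46.6) in A to F and 170.3, 188 and 120 CPM in G, H and I (log2 1.77, SE 0.19, adjusted p = 1.85e-13). The gene hsp-3, a BiP chaperone of the endoplasmic reticulum, had 36.0 to 87.0 CPM (median 51.6) in A to F and 151, 151 and 138 CPM in G, H and I (log2 1.45, SE 0.18, adjusted p = 7.23e-11). The sets did not overlap in these 3 genes. The gene ugt-31, the member with the highest level, had 218 to 276 CPM (median 259.8) against 272, 262 and 267 CPM and was not called (log2 0.10, SE 0.11, adjusted p = 0.441).

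Some families outside the lists were picked after their values were seen. All 12 tested of 13 rpn genes, which encode the regulatory particle of the proteasome, were higher (median 1.11), 9 of them after passing the filter in both sets. The gene rpn-1 had 94.1 to 128 CPM (median 109.5) against 259.8, 276 and 240 CPM and rpn-2 76.2 to 145 CPM (median 106) against 272, 256 and 234 CPM. Of 13 klp kinesin genes 8 were tested and all 8 passed in both sets, with 7 higher and 1 lower (median 1.10). The gene klp-7, for a microtubule-depolymerizing kinesin, had 215 to 263 CPM (median 231) in A to F and 1400.3, 1677 and 1293 CPM in G, H and I (log2 2.60, SE 0.09, adjusted p = 2.58e-41), and the C-terminal motor genes klp-15 and klp-16 had log2 fold changes of 2.34 and 2.53. The cilium motor gene klp-20 was the 1 lower, with 428 to 536 CPM (median 497) against 282, 267 and 231 CPM (log2 -0.93, SE 0.10, adjusted p = 3.97e-13). Of 26 npp nucleoporin genes 23 were tested, with 10 higher (43.5%, median 0.36) and the others not called, against 39.9% of all protein-coding genes. All 10 were among the 21 that passed in both sets.

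The 10 largest rises by the rule for named genes were ranked by a fitted fold change that for features without a count in A to F depends on the prior count. They were of features with hardly a count in A to F, among them rpl-42, ssp-16 and nspd-3 above. F56D6.22 (chromosome IV, 3907292 to 3907606, minus strand) had no count in A to F and 112, 131 and 100.3 CPM in G, H and I, at least 66.9-fold higher. An interval on chromosome II (2529694 to 2530077, minus strand), within an intron of K02F6.7 on the same strand, had no count in A to F and 80.7, 68.2 and 102 CPM in G, H and I, at least 52.0-fold higher. E03H12.5 (chromosome IV, 4977226 to 4978084, plus strand) was at least 42.0-fold higher, T05F1.7 at least 40.2-fold higher, Y69A2AR.50 at least 33.8-fold higher and lgc-37, a ligand-gated ion channel gene, at least 32.4-fold higher, all with no count in A to F. The gene nep-13 (chromosome II, 3282653 to 3287174, plus strand), of the neprilysin peptidase family, had 0 to 2.39 CPM (median 0) in A to F and 138, 173 and 128 CPM in G, H and I, a ratio of 255 (95% interval 45.4 to 10120.5) from 1 and 239 counts. Y26G10.5 (chromosome V, 17700419 to 17700828, minus strand) had 0 to 2.39 CPM (median 0) in A to F and 120.4, 142 and 159.5 CPM in G, H and I, a ratio of 253 (95% interval 45.0 to 10036). In these genes A to F held at most 1 count over the 6 libraries together. The gene nhr-229 (chromosome IV, 17028931 to 17030594, minus strand), a nuclear hormone receptor gene picked after its values were seen, had small RNAs in every library, with 50.3 to 79.4 CPM (median 59.6) in A to F and 1546, 1476 and 1746 CPM in G, H and I (log2 4.77, SE 0.11, adjusted p = 1.01e-52).

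In all, 106 features were at least 16-fold higher in G to I, also with the 21 features without a count in A to F taken at their bound, and 99 of them were genes. They lay on chromosome IV (30), II (29), I (17), V (17), III (9) and X (3), and 1 gene identifier had no position in the annotation. At least 4-fold lower were 199 features, 179 of them genes, on V (50), II (40), I (37), III (31), X (24) and IV (17). Both orders are of counts and not of shares, since the chromosomes differ in features tested. These were 974 on I, 825 on II, 910 on III, 827 on IV, 787 on V and 310 on X. No tested feature was without a count in G to I. The cuts of 16-fold and 4-fold differ, so the 106 and the 199 are not to be set side by side. Features that passed the filter in 1 set alone had to be high there, and such features were not counted apart here.

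**Figure D3:**
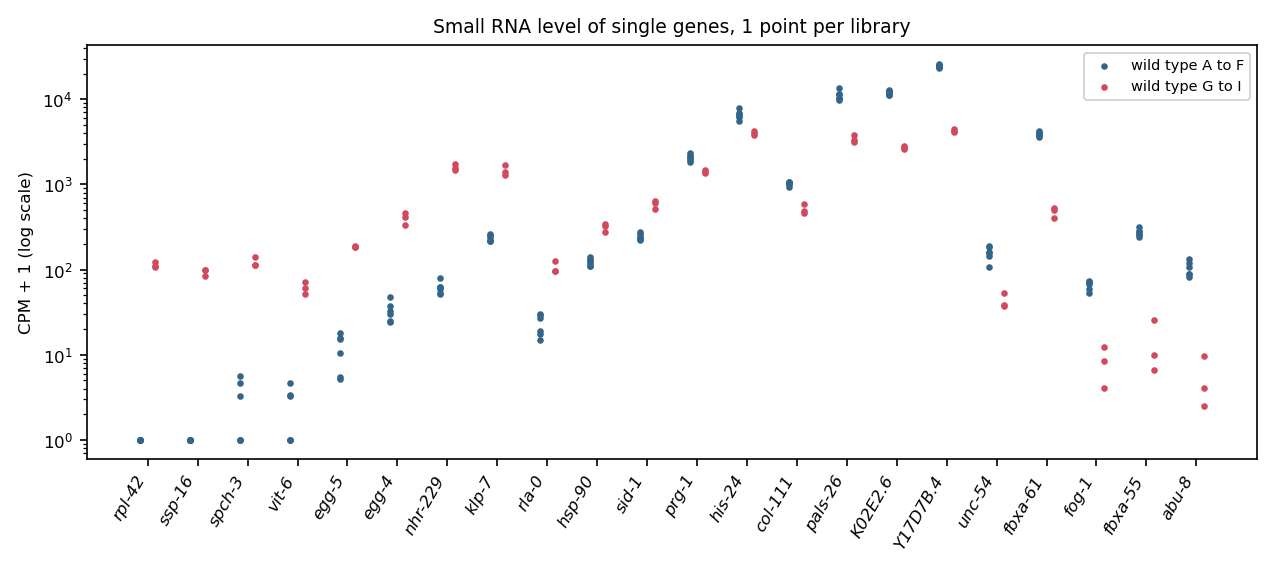
Small RNA level (CPM + 1, vertical axis, log scale) of 22 genes (horizontal axis), with 1 point for each of the 6 libraries of A to F (blue, left) and the 3 of G to I (red, right). The genes run from those near 0 in A to F, such as rpl-42 and ssp-16, to those lower in G to I, and in each gene shown the sets do not overlap.

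On the lower side, targets of the ERGO-1 pathway included some of the features with the most counts. ERGO-1 is an Argonaute whose 26G RNAs trigger secondary small RNAs on a set of recently duplicated genes and pseudogenes. Of 23 such genes 20 were tested, 17 were lower and 1 higher (median -1.57), against 32% lower and 34.8% higher of all features. Of the 16 that passed the filter in both sets 14 were lower (median -1.26). The sum over the 23 genes came to 66330 to 72910 CPM (median 69270) in A to F and to 20130, 19470 and 20590 CPM in G, H and I. The mean of A to F was 3.46 times that of G to I, and no library of the sets overlapped. With all reads counted 11 were lower and 7 higher, with a median of -0.65.

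Y17D7B.4 (WBGene00012452, chromosome V, 18776238 to 18776687, minus strand), the feature with the highest mean of all 4634, had 23569 to 25730.3 CPM (median 24641) in A to F and 4179, 4469 and 4178 CPM in G, H and I (log2 -2.52, SE 0.06, adjusted p = 2.61e-51). K02E2.6 (WBGene00010507, chromosome V, 20380561 to 20382036, plus strand) had 11267 to 12744 CPM (median 12083) in A to F and 2855, 2573 and 2712 CPM in G, H and I (log2 -2.14, SE 0.06, adjusted p = 2.37e-45). The gene W04B5.2 (chromosome III, 2424355 to 2425678, plus strand) had 5406 to 6634 CPM (median 5762) in A to F and 1537, 1564 and 1651 CPM in G, H and I (log2 -1.89, SE 0.07, adjusted p = 6.77e-40). Libraries G, H and I lay below all of A to F in these 3 genes, and differed little among themselves. C36A4.11 (log2 -1.63), Y37E11B.2 (-1.74) and sosi-1 (-1.01) were lower too, and E01G4.5 varied more within G to I, with 780.3 to 1101 CPM (median 836) against 233, 88.1 and 137 CPM. F14F7.5 (chromosome III, 13032001 to 13036408, plus strand) was the 1 member higher, with 9.01 to 28.0 CPM (median 11.7) in A to F and 76.3, 56.9 and 72.9 CPM in G, H and I (log2 2.38, SE 0.28, adjusted p = 1.16e-11). These last 5 members were named after their values were seen.

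The genes silenced by WAGO Argonautes or piRNAs, 8 in the table, had a median closer to 0. All 7 tested were lower (median -0.41), each after passing the filter in both sets, where 34.1% of all features were lower. But with all reads counted 4 of the 7 were higher and 1 lower and their median was 0.51. B0261.8 (chromosome I, 5271265 to 5272041, minus strand) had 890.3 to 1116 CPM (median 1043) in A to F and 423, 387 and 404 CPM in G, H and I (log2 -1.35, SE 0.08, adjusted p = 1.03e-24). C38D9.2 (chromosome V, 17567150 to 17571742, plus strand) had 3535 to 4035 CPM (median 3812) in A to F and 2067, 2300.1 and 1948 CPM in G, H and I (log2 -0.86, SE 0.06, adjusted p = 1.96e-20). The gene saeg-2 (chromosome III, 9240363 to 9242514, plus strand) had 3146 to 3631 CPM (median 3400.3) in A to F and 2826, 2562 and 2829 CPM in G, H and I (log2 -0.31, SE 0.06, adjusted p = 7.19e-06). In these 3 genes the sets did not overlap, while bath-45 overlapped, with 3781 to 4625 CPM (median 4357) against 3386, 3119 and 3872 CPM (log2 -0.31, SE 0.06, adjusted p = 1.62e-05). Of these 4 genes all but B0261.8 turned direction with all reads counted, where C38D9.2 was not called. With feature totals saeg-2 and bath-45 turned too, without a call.

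Unnamed intervals were lower almost throughout. Of 55259 intervals 599 were tested, 460 were lower and 14 higher (median -0.72), and of the 453 that passed in both sets 353 (77.9%) were lower and 3 higher. By the annotation 231 of 281 tested intergenic intervals were lower, 115 of 168 intronic ones and 114 of 150 that overlap an exon. The share lower was 68.5% to 84.5% on each of the 6 chromosomes. The sum over all intervals came to 227000 to 239600 CPM (median 234600) in A to F and to 142300, 139200 and 140400 CPM in G, H and I. As given above, intervals held a larger part of all reads counted in G to I.

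Neighbouring intervals on chromosome V were among the highest features. The interval at 17137383 to 17141676 (minus strand), which overlaps the microRNA gene mir-257 on the other strand, had 10299.9 to 11534 CPM (median 10616) in A to F and 6422, 6363 and 6188 CPM in G, H and I (log2 -0.76, SE 0.06, adjusted p = 1.95e-20). The one at 17132108 to 17137381 (minus strand), which overlaps an exon of Y102A5D.22, had 9826 to 10887 CPM (median 10282) in A to F and 6996, 7108 and 6806 CPM in G, H and I (log2 -0.57, SE 0.06, adjusted p = 9.76e-15). Both were lower without overlap, and both turned direction with all reads counted. An interval at 14761618 to 14764280 (plus strand) over an exon of Y50E8A.14 had 533 to 642 CPM (median 589) against 64.6, 56.9 and 80.5 CPM (log2 -3.07). In the other direction, an interval on chromosome III (3276149 to 3277198, plus strand), opposite an intron of Y53G8AM.8, had 13.5 to 32.7 CPM (median 17.6) in A to F and 631, 500.4 and 596 CPM in G, H and I (log2 4.89, SE 0.16, adjusted p = 1.59e-41). The last pair was named after the values were seen.

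Pseudogenes, which are common WAGO targets, had 198 members in the table and 55 tested, 38 lower and 12 higher (median -0.61). Of the 34 that passed in both sets 27 (79.4%) were lower and 3 (8.82%) higher, against 34.1% and 27.7% of all features that did. The sum over the 198 came to 38570 to 44040 CPM (median 40680) in A to F and to 25520, 26640 and 25270 CPM in G, H and I. W05H12.2 (chromosome I, 13412425 to 13413172, minus strand) had 1317 to 1462 CPM (median 1387) in A to F and 295, 273 and 290.2 CPM in G, H and I (log2 -2.26, SE 0.08, adjusted p = 1.98e-38). Y6B3B.3 (chromosome I, 13709779 to 13714128, plus strand) was higher, with 0 to 15.8 CPM (median 10.1) in A to F and 182, 168 and 152 CPM in G, H and I (log2 4.03, SE 0.25, adjusted p = 2.68e-24). So was T20B6.2 (chromosome III, 2893466 to 2898802, plus strand), with 0 to 8.28 CPM (median 0) in A to F and 85.1, 79.6 and 69.9 CPM in G, H and I, a ratio of 70.5 (95% interval 19.1 to 588) from 2 and 132 counts. The libraries of the sets did not overlap in these 3, which were picked after their values were seen.

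Histone genes were lower as a group. Of 71 core histone genes, whose products pack DNA into nucleosomes, 40 were tested, 33 were lower and 0 higher by edgeR, and the median was -1.08. At an unadjusted p under 0.05, 0 were higher, and DESeq2's test called 30 lower and 0 higher. With all reads counted 11 were lower and 6 higher. Of the 20 that passed in both sets 14 (70.0%) were lower, against 34.1% of all features that did, and the other 20 genes passed in A to F alone. The sum over the 71 genes came to 3807 to 4402 CPM (median 4133) in A to F and to 1915, 2095 and 1964 CPM in G, H and I, without overlap. Many of these genes are near-identical copies, so reads may be split among them and single values are uncertain. The gene his-11 had 108 to 202 CPM (median 165) in A to F and 42.6, 56.9 and 38.0 CPM in G, H and I (log2 -1.86, SE 0.19, adjusted p = 1.85e-14). The gene his-15 had 122 to 159 CPM (median 127) in A to F and 35.2, 25.6 and 36.5 CPM in G, H and I (log2 -1.95, SE 0.20, adjusted p = 4.88e-14). The gene his-22 had 45.5 to 83.8 CPM (median 61.2) in A to F and 8.81, 14.2 and 18.2 CPM in G, H and I (log2 -2.21, SE 0.29, adjusted p = 3.64e-10). The gene his-61, the core histone gene with the highest level, had 298 to 499 CPM (median 389) in A to F and 211, 242 and 191 CPM in G, H and I (log2 -0.85, SE 0.12, adjusted p = 8.01e-10) and turned to log2 0.062 with all reads counted.

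The linker histones bind DNA between nucleosomes. Of 9 genes 6 were tested, 4 lower and 1 higher, all 6 after passing in both sets (median -0.84, which turned to 0.083 with all reads counted). The gene his-24 (WBGene00001898, chromosome X, 14490094 to 14491119, plus strand) had 5602 to 7967 CPM (median 6576) in A to F and 4009, 4222 and 3759 CPM in G, H and I (log2 -0.73, SE 0.07, adjusted p = 1.83e-16). The gene hil-3 (chromosome X, 8159169 to 8160084, plus strand) had 1147 to 1369 CPM (median 1244) in A to F and 675, 625 and 658 CPM in G, H and I (log2 -0.94, SE 0.08, adjusted p = 1.14e-18). The gene hil-5 had 192 to 240.2 CPM (median 216) in A to F and 70.5, 54.0 and 53.2 CPM in G, H and I (log2 -1.82, SE 0.16, adjusted p = 2.44e-17). The sets did not overlap in these 3 genes, of which his-24 turned to log2 0.19 with all reads counted. The gene hil-8 was the 1 higher, with 3919.6 to 4462 CPM (median 4103) against 4820.2, 4714 and 4937 CPM (log2 0.22, SE 0.06, adjusted p = 0.0008), and was not called with TMM on genes only (adjusted p = 0.381) or in a table of genes only (0.401).

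Cuticle collagens were lower where they could be tested. Collagens form the worm's exoskeleton, which is remade at each molt. The table has 174 genes, of which 127 had a count and 11 were tested, and all 11 were lower (median -1.26). Of these, 5 passed in both sets and all 5 were lower, so the 11 do not stand for the 174. The sum over the 174 came to 3698 to 4287 CPM (median 3981) in A to F and to 2015, 2232 and 1747 CPM in G, H and I. The gene col-38 (chromosome II, 8568035 to 8569088, minus strand) had 119.7 to 192 CPM (median 167) in A to F and 32.3, 37.0 and 21.3 CPM in G, H and I (log2 -2.42, SE 0.21, adjusted p = 1.38e-17). The gene col-111 (chromosome IV, 4655791 to 4657974, minus strand) had 940 to 1068 CPM (median 1032) in A to F and 492, 589 and 460.3 CPM in G, H and I (log2 -1.02, SE 0.08, adjusted p = 8.79e-19). The gene col-157 (chromosome V, 11484042 to 11485039, plus strand) had 472 to 663 CPM (median 538) in A to F and 245, 276 and 229 CPM in G, H and I (log2 -1.17, SE 0.10, adjusted p = 6.47e-17). The sets did not overlap in these genes or in col-71, the collagen with the highest level, which had 912 to 1189.8 CPM (median 1060) against 718, 813 and 608 CPM (log2 -0.57, SE 0.08, adjusted p = 7.61e-09) and turned to log2 0.35 with all reads counted.

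The abu genes, named for their activation when the unfolded protein response is blocked, had few counts. The 14 genes had 308 counts in A to F against 14 in G to I, and 2 were tested, both after passing the filter in A to F alone. The gene abu-8 (chromosome V, 5192995 to 5194608, minus strand) had 79.8 to 132 CPM (median 97.3) in A to F and 1.47, 8.53 and 3.04 CPM in G, H and I (log2 -4.74, SE 0.35, adjusted p = 1.95e-20). The gene abu-7 (chromosome V, 5163270 to 5164782, minus strand) had 9.41 to 43.5 CPM (median 31.1) in A to F and 0, 0 and 1.52 CPM in G, H and I, a ratio of 50.6 (95% interval 8.70 to 2034) from 54 and 1 counts. These 2 genes hold most of the family's counts and say little of the other members. Both genes lie near each other on chromosome V, and both were among the 10 largest falls by the rule for named genes.

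F-box genes gave 4 of those 10 falls. They encode substrate adaptors of ubiquitin ligases and are greatly expanded in C. elegans, and 322 of the fbxa, fbxb and fbxc families were in the table. Of 61 tested, 46 were lower and 8 higher (median -1.23), and of the 34 that passed in both sets 25 (73.5%) were lower and 5 higher. Their sum came to 23400 to 25120 CPM (median 24240) in A to F and to 13430, 12450 and 14040 CPM in G, H and I. By family 34 of 44 fbxa genes and 10 of 11 fbxb genes were lower, and 2 of 6 fbxc genes. Among those that passed in both sets, 20 of 25 fbxa, 5 of 5 fbxb and 0 of 4 fbxc genes were lower. Of these 4 fbxc genes 1 was higher, and both lower fbxc genes passed in A to F alone.

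The gene fbxa-61 (WBGene00022486, chromosome III, 1239048 to 1242799, plus strand) had 3631 to 4279.7 CPM (median 3941) in A to F and 496, 407 and 530.2 CPM in G, H and I (log2 -3.03, SE 0.08, adjusted p = 4.08e-49). The gene fbxa-53 (chromosome X, 1716253 to 1718579, minus strand) had 466 to 635 CPM (median 543) in A to F and 35.2, 39.8 and 36.5 CPM in G, H and I (log2 -3.90, SE 0.15, adjusted p = 4.15e-38). The gene fbxa-24 (chromosome II, 3816526 to 3818238, plus strand) had 851 to 1189.7 CPM (median 1043) in A to F and 219, 151 and 225 CPM in G, H and I (log2 -2.34, SE 0.10, adjusted p = 1.93e-34). Among the 10 largest falls was fbxa-55, with 239 to 318 CPM (median 265) in A to F and 8.81, 5.69 and 24.3 CPM in G, H and I (log2 -4.21, SE 0.22, adjusted p = 8.13e-30). The gene fbxa-54 had 81.0 to 108 CPM (median 93.9) against 1.47, 0 and 9.12 CPM (log2 -4.36, SE 0.35, adjusted p = 1.54e-18). The gene fbxa-51 had 83.4 to 149 CPM (median 124) against 7.34, 2.84 and 7.60 CPM (log2 -4.14, SE 0.31, adjusted p = 1.18e-20). The gene fbxb-20, also among them, had 33.1 to 65.8 CPM (median 48.8) against 1.47, 2.84 and 1.52 CPM, a ratio of 27.5 (95% interval 9.10 to 136). Every library of G to I lay below every library of A to F in all 7 genes. For fbxa-55, fbxa-54, fbxa-51 and fbxb-20 this was required by the rule that named them, so it is no separate result. Close relatives in these families can share reads, so the split between them is uncertain.

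Several of the F-box genes that fell are neighbours. Between 933422 and 1275613 on chromosome III, a stretch chosen after the values were seen, 11 fbxa genes were tested and all 11 were lower. Of these, fbxa-30, fbxa-51, fbxa-54, fbxa-55, fbxa-59 and fbxa-63 had means of 3.53 to 19.6 CPM in G to I, under the filter level. They were tested only for being high in A to F, so their lower calls follow from that. The genes fbxa-61, fbxa-63 and fbxa-30 lie from 1239048 on, apart from the others, which end at 963833. The log2 fold changes in the stretch were from -4.36 (fbxa-54) to -0.80 (fbxa-11), and the gene with the highest level was fbxa-61. The genes fbxa-59 and fbxa-60, which lie next to fbxa-55, had 254 to 323 CPM (median 300.2) against 22.0, 17.1 and 19.7 CPM (log2 -3.85, SE 0.19, adjusted p = 2.9e-31) and 562 to 789.7 CPM (median 614) against 93.9, 85.3 and 112 CPM (log2 -2.70, SE 0.12, adjusted p = 3.44e-33).

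Of the other genes among the 10 largest falls the largest was Y113G7A.13 (chromosome V, 20148195 to 20150609, plus strand), with 21.8 to 59.9 CPM (median 41.0) in A to F and 0, 0 and 1.52 CPM in G, H and I, a ratio of 72.1 (95% interval 12.6 to 2885). Another was Y105C5A.13 (chromosome IV, 15641231 to 15643828, plus strand), with 84.1 to 113 CPM (median 105) in A to F and 1.47, 0 and 6.08 CPM in G, H and I (log2 -5.00, SE 0.36, adjusted p = 3.88e-21). Y48B6A.10 had 49.7 to 103 CPM (median 67.2) against 1.47, 2.84 and 3.04 CPM (log2 -4.67, SE 0.42, adjusted p = 1.18e-16). The gene Y39G8B.7 had 29.0 to 74.8 CPM (median 36.8) against 1.47, 0 and 3.04 CPM, a ratio of 24.0 (95% interval 7.92 to 119). In each of the 10 the libraries of G to I held at most 24 counts together.

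MATH and BTB genes, another expanded family of ubiquitin ligase adaptors, were mixed, with 13 lower and 5 higher of 26 tested (73 in the table, median -0.29, which turned to 0.044 with feature totals and 0.62 with all reads counted). Of the 15 that passed the filter in both sets 3 were higher and 8 lower. The gene math-20 had 60.7 to 149 CPM (median 113) in A to F and 4.40, 11.4 and 22.8 CPM in G, H and I (log2 -3.06, SE 0.28, adjusted p = 7.42e-16). The gene bath-10 had 115 to 149.5 CPM (median 126) in A to F and 27.9, 39.8 and 44.1 CPM in G, H and I (log2 -1.78, SE 0.20, adjusted p = 1.7e-12). The gene math-41 had 58.0 to 80.0 CPM (median 75.7) in A to F and 13.2, 17.1 and 12.2 CPM in G, H and I (log2 -2.42, SE 0.27, adjusted p = 2.14e-12). In these 3 genes the sets did not overlap. The gene bath-20, the member with the highest level, had 4369 to 5569.8 CPM (median 4833) against 3416, 3173 and 4044 CPM (log2 -0.47, SE 0.07, adjusted p = 2.35e-09) and turned to log2 0.45 with all reads counted.

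The pals genes, of which several are induced by viral or microsporidian infection, had 6 lower of 6 tested of 38 in the table. With the other antiviral response genes, 48 in all, 7 were tested, with 6 lower and 1 higher, drh-1, which was not called with TMM on genes only or by DESeq2's test. The list's median was -1.72, and of the 4 that passed in both sets 3 were lower. The sum over the 48 came to 10720 to 14320 CPM (median 11770) in A to F and to 4151, 3585 and 3512 CPM in G, H and I. Most of this sum was of pals-26 in every library, so it says little of the other members. The gene pals-26 (WBGene00007131, chromosome III, 4375154 to 4378907, plus strand), the member with the highest level, had 9919 to 13598 CPM (median 10947) in A to F and 3763, 3284 and 3139 CPM in G, H and I (log2 -1.72, SE 0.07, adjusted p = 2.29e-36). The gene pals-14 (chromosome I, 13139122 to 13141898, plus strand) had 103 to 128 CPM (median 114) in A to F and 10.3, 11.4 and 15.2 CPM in G, H and I (log2 -3.19, SE 0.26, adjusted p = 9.68e-19). The gene pals-1 (chromosome I, 11579856 to 11581989, minus strand) had 98.2 to 174 CPM (median 106) in A to F and 25.0, 14.2 and 12.2 CPM in G, H and I (log2 -2.69, SE 0.25, adjusted p = 9.34e-16). No library of G to I reached the level of A to F in these genes.

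**Figure D4:**
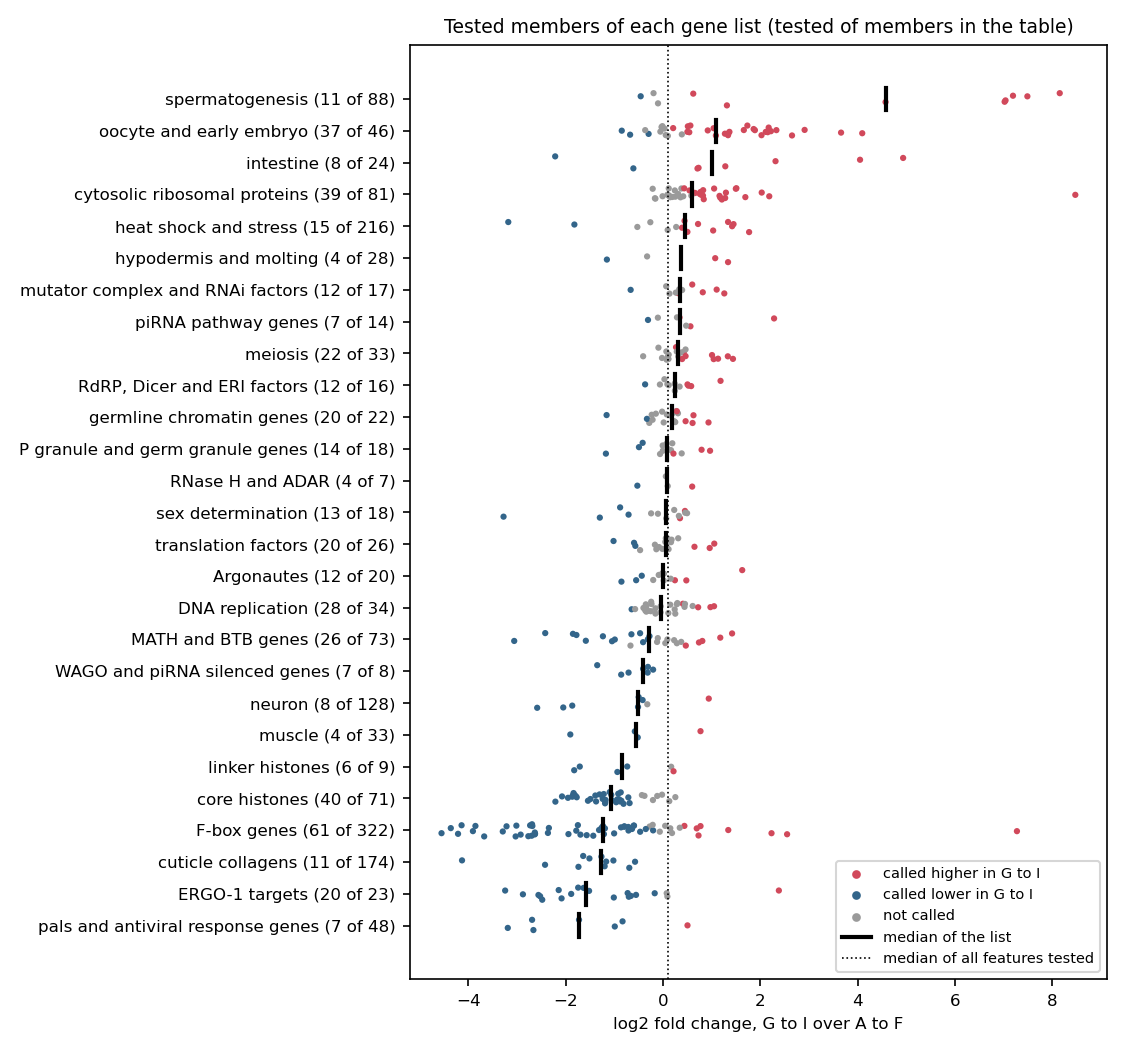
Log2 fold change of G to I over A to F (horizontal axis) for the tested members of each of the 27 gene lists (rows, with tested of members in the table), 1 point per gene. Red points were called higher, blue lower and grey not called, the black bar is the list's median and the dotted line the median of all features tested (0.11), and the lists run from pals genes at -1.72 to spermatogenesis at 4.57, where 7 of the 11 genes passed the filter in G to I alone.

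Genes of the small RNA pathways themselves had list medians between 0.0023 and 0.35, and their counts of calls moved with the scale. Of 20 Argonaute genes 12 were tested, 3 higher and 3 lower (median 0.0023). Of the 9 that passed the filter in both sets 2 were higher and 2 lower. With TMM on genes only 2 were higher and 4 lower, with feature totals 6 and 2, and with all reads counted 11 and 0. The gene prg-1, the Piwi gene that binds piRNAs, had 1835 to 2314 CPM (median 2065) in A to F and 1433, 1461 and 1344 CPM in G, H and I (log2 -0.55, SE 0.07, adjusted p = 5.5e-11). The gene wago-4, of transgenerational inheritance, had 1041 to 1284 CPM (median 1237) in A to F and 912, 873 and 896 CPM in G, H and I (log2 -0.44, SE 0.07, adjusted p = 3.13e-07). Both were lower without overlap and turned direction with all reads counted. The gene rde-1, the Argonaute gene of RNA interference by long double-stranded RNA, was higher without overlap, with 21.8 to 35.9 CPM (median 26.5) in A to F and 74.9, 82.5 and 100.3 CPM in G, H and I (log2 1.63, SE 0.23, adjusted p = 2.46e-09).

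Of 17 mutator and RNA interference genes 12 were tested, 5 higher and 1 lower (median 0.35). Among the 11 at the filter level in both sets 4 (36.4%) were higher and 1 (9.09%) lower, against 27.7% and 34.1% of all features there. TMM on genes only gave 4 higher and 1 lower, and feature totals and all reads counted 11 higher each, with 1 and 0 lower. The double-stranded RNA channel gene sid-1 had 224 to 275 CPM (median 238) in A to F and 597, 512 and 646 CPM in G, H and I (log2 1.26, SE 0.10, adjusted p = 1.76e-19). The gene rde-11, an RNA interference gene, had 259 to 334 CPM (median 283) in A to F and 484, 435 and 579 CPM in G, H and I (log2 0.82, SE 0.10, adjusted p = 2.88e-11). Both were higher in every library of G to I. The gene mut-16, for the scaffold of Mutator foci, was the 1 lower, with 163 to 218 CPM (median 198) in A to F and 109, 122 and 139.8 CPM in G, H and I (log2 -0.66, SE 0.14, adjusted p = 2.1e-05), and turned to log2 0.25 with all reads counted. Of 16 genes for RNA-dependent RNA polymerases, Dicer and ERI factors 12 were tested, 4 higher and 1 lower (median 0.24), and all 12 passed the filter in both sets. TMM on genes only and DESeq2's test each gave 1 higher and 1 lower, thinned counts 2 and 1, feature totals 10 and 0, and all reads counted 12 and 0. The gene rrf-3, the polymerase gene of the ERGO-1 pathway, had 23.5 to 74.2 CPM (median 50.7) in A to F and 109, 117 and 132 CPM in G, H and I (log2 1.18, SE 0.19, adjusted p = 1.55e-07) and lay higher without overlap. The gene drh-1, a Dicer-related helicase gene of antiviral defence, had 68.9 to 103 CPM (median 85.5) against 128, 99.5 and 128 CPM with overlap (log2 0.50, SE 0.17, adjusted p = 0.00619) and was not called without library G (adjusted p = 0.055), with TMM on genes only (0.0604), in a table of genes only (0.0583) or by DESeq2's test (0.0771). The gene eri-6, a helicase gene of the ERGO-1 pathway, was the 1 lower and the highest in level, with 6619.9 to 7196 CPM (median 6927) in A to F and 5516, 5058 and 5472 CPM in G, H and I (log2 -0.37, SE 0.06, adjusted p = 4.52e-08), and turned to log2 0.56 with all reads counted.

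P granule and germ granule genes had 3 higher and 3 lower of 14 tested (18 in the table, median 0.089). Among the 13 that passed the filter in both sets 2 were higher and 3 lower. TMM on genes only gave 2 higher and 3 lower, feature totals 10 and 1, and all reads counted 13 and 0. The gene meg-4, of granule assembly in embryos, had 126 to 207 CPM (median 144) in A to F and 79.3, 62.5 and 62.3 CPM in G, H and I (log2 -1.17, SE 0.17, adjusted p = 4.41e-09). The gene pgl-3, a granule scaffold gene, had 139 to 185 CPM (median 159) in A to F and 261, 313 and 273 CPM in G, H and I (log2 0.79, SE 0.12, adjusted p = 2.82e-08). They lay on opposite sides without overlap. The RNA-binding protein gene car-1 was lower with overlap, at 482 to 771 CPM (median 617) against 449, 512 and 368 CPM (log2 -0.49, SE 0.10, adjusted p = 7.7e-06), and turned to log2 0.42 with all reads counted. The germline helicase gene glh-4 had 670.4 to 720.5 CPM (median 679.7) against 762, 782 and 767 CPM and was not called although the sets did not overlap (log2 0.17, SE 0.08, adjusted p = 0.0525).

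Among 14 piRNA pathway genes 7 were tested, 3 higher and 1 lower (median 0.34). Among the 5 that passed the filter in both sets 1 were higher and 1 lower. TMM on genes only gave 1 higher and 2 lower, DESeq2's test 1 and 1, feature totals 6 and 0, and all reads counted 7 and 0. The gene tofu-1, which acts in piRNA processing, had 4.67 to 23.5 CPM (median 18.6) in A to F and 76.3, 51.2 and 85.1 CPM in G, H and I (log2 2.28, SE 0.28, adjusted p = 3.72e-11). The gene snpc-4, a transcription factor gene of piRNA loci, had 94.3 to 132 CPM (median 119) against 141, 136 and 164 CPM (log2 0.34, SE 0.15, adjusted p = 0.0343) and was not called without A, B, C, D, G or I (adjusted p = 0.0561 to 0.204), with TMM on genes only (0.265), in a table of genes only (0.26), with thinned counts (0.075) or by DESeq2's test (0.165). The piRNA silencing gene pid-2 was lower with overlap, at 747 to 939 CPM (median 835) against 769, 637 and 629 CPM (log2 -0.31, SE 0.08, adjusted p = 0.000653), and turned to log2 0.029 with feature totals and 0.61 with all reads counted. The gene parn-1, which trims piRNAs, had 1053 to 1454 CPM (median 1251) against 1045, 1191 and 1284 CPM and was not called (log2 -0.10, SE 0.07, adjusted p = 0.208). Of 22 germline chromatin genes 20 were tested, 5 higher and 2 lower (median 0.18), and of the 18 at the filter level in both sets 5 were higher and 1 lower. By TMM on genes only 3 were higher and 2 lower, by feature totals 14 and 1, and all reads counted 19 and 0. The nuclear RNA interference gene nrde-1 had 23.5 to 56.1 CPM (median 48.1) against 76.3, 96.7 and 79.0 CPM (log2 0.94, SE 0.22, adjusted p = 0.000108). The gene nrde-2 had 564 to 807 CPM (median 616) against 793, 731 and 798 CPM (log2 0.29, SE 0.08, adjusted p = 0.002) and was not called with TMM on genes only (adjusted p = 0.174) or in a table of genes only (0.169). The histone H3 lysine methyltransferase gene set-2 had 126 to 215 CPM (median 186) against 264, 239 and 235 CPM (log2 0.47, SE 0.12, adjusted p = 0.000779). The gene lsl-1, a zinc-finger gene, was lower with 31.5 to 70.4 CPM (median 37.5) against 20.5, 14.2 and 24.3 CPM (log2 -1.16, SE 0.29, adjusted p = 0.00033).

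Of the 7 RNase H and ADAR genes 4 were tested, 1 higher and 1 lower (median 0.079), and all 4 passed the filter in both sets. The RNA editing gene adr-1 had 32.9 to 70.4 CPM (median 58.5) against 66.1, 105 and 89.6 CPM with overlap (log2 0.60, SE 0.21, adjusted p = 0.00803) and was not called without library H (adjusted p = 0.0606), with TMM on genes only (0.0517), in a table of genes only (0.051), with thinned counts (0.0613) or by DESeq2's test (0.0719). The RNase H gene rnh-1.3 had 5308 to 7078 CPM (median 5811) in A to F and 4219.9, 4472 and 3798 CPM in G, H and I (log2 -0.53, SE 0.06, adjusted p = 2.81e-11), lower without overlap, and turned to log2 0.39 with all reads counted. Of 34 DNA replication genes 28 were tested, 4 higher and 1 lower (median -0.049). At the filter level in both sets were 16, with 1 higher and 1 lower. The balance of calls turned with the scale, with 2 higher and 6 lower by TMM on genes only, 12 and 0 by feature totals and 24 and 0 with all reads counted. The single-strand binding protein gene rpa-1 had 14.0 to 33.5 CPM (median 22.7) against 44.0, 39.8 and 60.8 CPM (log2 1.05, SE 0.27, adjusted p = 0.000457). The gene orc-4, of the origin recognition complex, had 14.0 to 49.5 CPM (median 24.1) against 63.1, 48.3 and 60.8 CPM (log2 0.98, SE 0.26, adjusted p = 0.000634). The helicase subunit gene mcm-4 was the 1 lower, with 115 to 154 CPM (median 122) against 88.1, 71.1 and 80.5 CPM (log2 -0.64, SE 0.16, adjusted p = 0.00046). It turned to log2 0.27 with all reads counted and was not called with feature totals (adjusted p = 0.0875) or thinned counts (0.0768). The topoisomerase gene top-2 had 393 to 559.7 CPM (median 501) against 484, 580 and 533 CPM and was not called (log2 0.11, SE 0.09, adjusted p = 0.282).

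Among somatic genes few passed the filter. Of 33 muscle genes 4 were tested, 3 lower and 1 higher, and the sum over the 33 was 1772 to 2089 CPM (median 1867) in A to F and 1278, 1197 and 1299 CPM in G, H and I. The 3 that passed the filter in both sets were the 3 lower ones, where 34.1% of all features that did so were lower. The gene unc-54, for the main body wall myosin, had 107 to 189 CPM (median 158) in A to F and 51.4, 37.0 and 36.5 CPM in G, H and I (log2 -1.90, SE 0.19, adjusted p = 8.88e-15). The gene ttn-1, a titin gene, had 489 to 624 CPM (median 546) against 358, 333 and 389 CPM (log2 -0.58, SE 0.09, adjusted p = 1.41e-07). The calponin gene cpn-4 was lower, with 905 to 1092 CPM (median 968) against 699, 634 and 726 CPM (log2 -0.52, SE 0.08, adjusted p = 1.88e-08). The gene act-2, an actin gene that is not limited to muscle, was higher, with 24.8 to 47.2 CPM (median 30.8) against 63.1, 48.3 and 53.2 CPM (log2 0.77, SE 0.24, adjusted p = 0.0038), though not without library G (adjusted p = 0.0543), with thinned counts (0.121) or by DESeq2's test (0.0757). The genes ttn-1 and cpn-4 turned direction with all reads counted, and so did the median of the list, from -0.55 to 0.37.

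Of 128 neuron genes 8 were tested, 6 lower and 1 higher (median -0.51, which turned to 0.41 with all reads counted). The 5 that passed in both sets held 4 lower (80.0%) and 0 higher, against 34.1% and 27.7% of all features that did. The synaptic vesicle release gene unc-10 had 66.3 to 168 CPM (median 107) in A to F and 26.4, 17.1 and 9.12 CPM in G, H and I (log2 -2.58, SE 0.26, adjusted p = 3.59e-14). The neuropeptide processing gene egl-21 had 103 to 126 CPM (median 111) in A to F and 25.0, 25.6 and 30.4 CPM in G, H and I (log2 -2.05, SE 0.22, adjusted p = 1.33e-13). The gene nlp-12, a neuropeptide gene, had 232 to 322 CPM (median 297) in A to F and 77.8, 111 and 62.3 CPM in G, H and I (log2 -1.86, SE 0.15, adjusted p = 1.8e-19). The sets did not overlap in these 3 genes. The gene flp-16, a neuropeptide gene and the member with the highest level, had 373 to 476 CPM (median 422) against 305, 321 and 272 CPM (log2 -0.50, SE 0.10, adjusted p = 1.5e-05) and turned to log2 0.42 with all reads counted. Of 28 hypodermis and molting genes 4 were tested, 2 higher and 1 lower (median 0.37), and 2 passed the filter in both sets, 1 higher and 1 lower, with a median of -0.039. With thinned counts the median of the 4 turned to -0.58, with 1 higher and 1 lower. The gene lin-42, a period-like timing gene of the molting cycle, had 289.9 to 479 CPM (median 404) in A to F and 185, 182 and 175 CPM in G, H and I (log2 -1.15, SE 0.12, adjusted p = 2.94e-14), lower in every library of G to I. The gene nhr-23, a nuclear receptor gene of molting, had 36.3 to 84.7 CPM (median 46.5) against 114, 88.1 and 126 CPM (log2 1.07, SE 0.20, adjusted p = 1.86e-06). The gene lin-41, a timing gene that also acts in oocytes, had 4.79 to 25.4 CPM (median 10.9) against 39.6, 34.1 and 31.9 CPM (log2 1.34, SE 0.33, adjusted p = 0.000309). Both were higher without overlap.

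By chromosome, protein-coding genes on X were mostly lower. Of 199 tested on X 118 (59.3%) were lower and 41 (20.6%) higher (median -0.70), against 862 (22.8%) and 1545 (40.9%) of 3776 on the autosomes (median 0.30). Among those that passed the filter in both sets, 61 of 111 on X (55.0%) and 542 of 2284 on the autosomes (23.7%) were lower. The sum over all 2692 genes on X was 48430 to 53610 CPM (median 51520) in A to F and 37360, 37000 and 36510 CPM in G, H and I. The mean of G to I was 0.723 times that of A to F, against 0.863 times for the autosomes together, 0.692 times for V alone and 0.791 times for all features. Among autosomes the share lower was highest on V, at 185 of 626, and intervals were lower on all chromosomes. For protein-coding genes called lower the median of the summed exon length was 1251 bases with 5 exons, against 1928 bases and 7 exons for genes called higher and 1957 bases and 7 exons for genes not called.

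**Figure D5:**
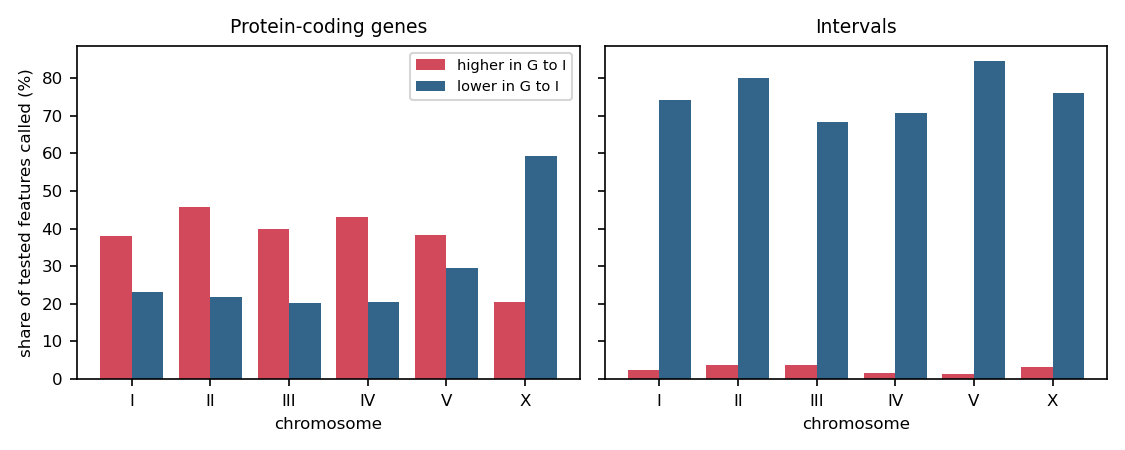
Share of tested features called higher (red) or lower (blue) in G to I (%, vertical axis, from 0) on each chromosome (horizontal axis), for protein-coding genes (left) and intervals (right). The lower share of protein-coding genes is 59.3% on X and between 20.2% and 29.6% on the autosomes, while intervals are mostly lower everywhere.

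The other features with the highest levels were lower without overlap between the sets. F15D4.5 (chromosome II, 13245376 to 13247774, plus strand) had 11089 to 13615 CPM (median 12119.9) in A to F and 6971, 7318 and 6688 CPM in G, H and I (log2 -0.81, SE 0.06, adjusted p = 1.55e-20). Y52B11A.18 (chromosome I, 11059299 to 11061435, plus strand) had 9591 to 13606 CPM (median 10559) in A to F and 7066, 8657 and 6473 CPM in G, H and I (log2 -0.55, SE 0.07, adjusted p = 6.9e-11). The gene W09C5.12 (chromosome I, 13661522 to 13662332, minus strand) had 9404 to 10565 CPM (median 9774) in A to F and 6665, 5820 and 7453 CPM in G, H and I (log2 -0.57, SE 0.06, adjusted p = 1.63e-13). On the scale of all reads counted these 3 turned to log2 0.12, 0.37 and 0.35, of which F15D4.5 was not called. Of the 8 features with the highest mean, Y17D7B.4, K02E2.6 and pals-26 kept their direction on every scale tried.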

How the data were processed

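Small RNA was measured in 9 wild-type libraries of whole L4 animals. The deposited values are whole-number counts of reads per gene or genomic interval, which the authors made with HTSeq 0.11.2, after cutadapt 2.3, Bowtie 1.2.3 and SAMtools 1.9 on the genome build ce11, per the submitters' processing notes. Not given in the sources used here are the strand setting, the handling of reads with several matches, any removal of duplicates and any filter on read length, so reads of overlapping, antisense and near-identical genes may be shared or split. The rows that name no feature were left out of library sizes and tests, and reads in no feature alone were 53.1% to 71.3% of all reads counted.

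Gene symbols, classes and positions came from the Ensembl annotation, with its sequence names for missing symbols. For 205 genes whose symbol the annotation repeats, the RefSeq symbol or the sequence name was used. Of 20134 gene IDs 79 were not matched. Counts were tested with edgeR 4.0.16 (quasi-likelihood test, TMM factors, R 4.3.3) on the 9 libraries alone, with no covariate, after edgeR's filter on low counts (33.3 CPM, which is 10 counts, in at least 3 libraries, and a total of 15). This kept 92.1% of feature counts. Adjusted p-values are Benjamini-Hochberg over all 4634 features, and features under 0.05 were called. Log2 fold changes are G to I over A to F. The standard error (SE) beside them was derived as the absolute log2 fold change divided by the square root of edgeR's F statistic. TMM-scaled CPM do not sum to the same total in each library. Shares were compared with an exact permutation test. Where A to F had no count, the fold was computed against a floor of 3 counts over the 6 libraries together, and ratios from few counts carry an exact 95% interval that covers counting error only.

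Named features were the 10 largest rises and falls among those called with at least 10 CPM in the higher set and no overlap, the 8 with the highest mean, and for each list of 5 or more tested genes the 3 with the smallest p and the 1 with the highest level, or every tested gene of a smaller list. The members and the gene lists were chosen with earlier results of these data known. Alternatives were other scalings and filters, thinned counts, DESeq2 1.42.0, limma 3.58.1 (voom) and leaving out each library. Figures were drawn with matplotlib 3.10.9 in Python 3.11.15.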

Additional observations from a re-analysis of the deposited data

Results flagged for a closer look

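Among the libraries A to F, 171 values given above (the level of a feature or a list in each of the 6 libraries) were examined for a library that stands far from the other five, and 14 had one. Chance alone gives about 1 in 20 such groups where values vary continuously. This rate does not hold where most libraries have no count, so the 14 are not read against it. G to I, with 3 libraries, were not examined.

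In 6 of the 14 the outlying library was the only 1 of A to F with a count, and all these features are near 0 in A to F. Library E held 2.394 CPM for nep-13 and 2.394 CPM for Y26G10.5. Library A held 4.141 CPM for gsp-3, 4.141 CPM for the chromosome II interval over an rpl-42 exon and 8.281 CPM for the pseudogene T20B6.2, while library B held 4.703 CPM for spch-1. The next library held no count in each.

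Library B was high for the summed ribosomal protein genes, at 2140 CPM against 1822 CPM in the next library, and for Y52B11A.18, at 13610 CPM against 11070 CPM. Library C was high for pals-1, at 174.1 CPM against 114.8 CPM, and for mex-5, at 36.27 CPM against 16.56 CPM. Library F was high for his-15, at 158.9 CPM against 132.8 CPM. Library A was high for eef-2, at 111.8 CPM against 98.16 CPM, and low for math-41, at 57.97 CPM against 74.22 CPM. Library E was low for fer-1, at 9.577 CPM against 29.27 CPM. In each of these 8 the outlying library still lay on the same side of G to I as the rest of A to F.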

How the results depend on the processing

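No paired analysis was possible because the letters of the 2 sets are all different. No pair of libraries agreed within sampling noise, so the fit with merged libraries was not run. With all reads counted as the library size, 3351 features were higher and 437 lower, 11 ERGO-1 targets, 11 core histones and 6 collagens were lower, and 39 ribosomal protein genes were higher. Without a filter 3130 features were higher, with 18 collagens and 71 F-box genes lower and 61 sperm genes higher, and with a mean of at least 10 CPM 50 core histones were lower and 18 sperm genes higher. Thinned counts left 3 sperm and 10 ribosomal protein genes higher, and DESeq2's test, with its own filter, called 44 sperm genes. Leaving out 1 library at a time gave 1466 to 1771 features higher and 1432 to 1682 lower, and 8 to 17 sperm genes higher.

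As shares of all reads counted, intervals were 0.9281 and pseudogenes 0.2296 points higher in G to I. Leaving out 1 library gave differences of -15.79 to -14.99 points for reads in no feature, -5.289 to -5.127 for intervals, 5.845 to 6.02 for protein-coding genes and -0.8135 to -0.7137 for pseudogenes. With 2 libraries left in G to I the exact permutation p was 0.0714, the smallest possible, so the threshold could not be passed.

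Log2 fold changes that turned positive with all reads counted were F15D4.5 0.12, Y52B11A.18 0.37, the mir-257 interval 0.16, its neighbour 0.35, W09C5.12 0.35, C38D9.2 0.065, saeg-2 0.61, bath-45 0.61, his-61 0.062, his-24 0.19, col-71 0.35, bath-20 0.45, prg-1 0.37, wago-4 0.48, mut-16 0.25, eri-6 0.56, car-1 0.42, pid-2 0.61, parn-1 0.82, spe-47 0.72, spe-41 0.45, par-2 0.25, tra-3 0.029, mcm-4 0.27, cpn-4 0.40, ttn-1 0.34, flp-16 0.42, acdh-1 0.30, rnh-1.3 0.39 and eef-1B.2 0.83. Of these, F15D4.5, C38D9.2, his-61, mut-16, tra-3 and mcm-4 were not called on that scale. With feature totals saeg-2 (0.023), bath-45 (0.028), pid-2 (0.029), parn-1 (0.23), spe-47 (0.14) and eef-1B.2 (0.26) turned, of which all but parn-1 were not called. Without a filter eef-1B.2 (0.00081) turned, also without a call. With TMM on genes only htp-1 (-0.058), top-2 (-0.045) and ugt-31 (-0.059) turned, and in a table of genes only they were -0.054, -0.041 and -0.054. Of 156 single features, DESeq2 size factors changed no call, voom 1 and DESeq2's test 7. Depth limits single genes below about 14.1 CPM.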
